A study of Mus musculus with 4 samples.

Results

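Lymphoid progenitor transcription factors are the nuclear proteins that open and hold the lymphoid programme before a cell is committed to one lineage. The 9 genes chosen by name were Tcf7, Lef1, Sox4, Tox, Tox2, Myb, Hlf, Satb1 and Zeb1. Of these, 8 had at least 1 probe set assigned to that gene alone, with 29 probe sets in all out of 45101 on the array, among 18193 genes that could be read this way. Tcf7, which encodes TCF-1, was not analysed here. The brightest probe set of each gene (highest geometric mean of the 4 arrays) gave its main value, and the others served as a check.

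Affymetrix arrays read the RNA of ILC2, the group 2 innate lymphoid cells, which lack a rearranged antigen receptor and make type 2 cytokines. There were 2 arrays of Ets1-deleted and 2 of littermate control mice, all C57BL/6; the Ets1 protein is a DNA-binding member of the ETS family. Both genotypes were kept on the Notch ligand-bearing stromal line OP9-DL1 in IL-7 plus IL-33, over 2 weeks in culture, before ICOS+ cells were sorted for RNA. Mouse age, the Ets1 allele, any Cre driver and any pooling of animals are not stated in the sources used here. Whether the arrays stand for separate mice or cultures is not stated either; p-values therefore reflect the spread among these samples alone, possibly a technical one. Ets1 itself read 138.1 and 180.2 intensity units in the Ets1-deleted arrays, against 1272 and 1231 in the controls. Whether these probes fall inside the deleted stretch is not stated, which limits this check of the labels. Of 14 ILC2 markers, 12 had a probe set and all 12 passed the limit for dim genes. Gata3 read 3032 and 2828 intensity units in the Ets1-deleted arrays and 2807 and 2741 in the controls, with no call (limma, adjusted p = 0.658). Of the 12, however, 9 were called, 6 higher and 3 lower. The 6 higher were Thy1 (log2 difference of 1.91), Rora (1.29), Il17rb (0.93), Il5 (0.83), Il2ra (0.81) and Il13 (0.69). The 3 lower were Klrg1, Icos and Ptgdr2 (-0.45). Klrg1, a receptor of mature ILC2, read 671.5 and 605.7 in the Ets1-deleted arrays and 1954 and 1901 in the controls (log2 difference of -1.60), and Icos, the marker of the sort, 4549 and 4894 in the Ets1-deleted arrays and 6293 and 6009 in the controls (-0.38).

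Most of these genes encode DNA-binding proteins with a high mobility group (HMG) box, a domain that bends DNA. TCF-1 and LEF1 are close relatives that bind the same DNA motif, recruit beta-catenin when Wnt signals and TLE repressors when it does not, and act early in T cell and innate lymphoid development. TOX is needed in mice for innate lymphoid progenitors and for CD4 T cells, TOX2 is its relative, and SOX4 carries an HMG box of the SOX type and is needed in mice for early B lymphocytes. MYB maintains blood progenitors and several steps of lymphoid development. HLF, a leucine zipper protein, is best known from blood stem cells. SATB1 folds chromatin in thymocytes, and ZEB1 is a zinc finger repressor also known from thymocyte development.

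Of the 8 measured genes, 5 rose in the Ets1-deleted arrays, namely Sox4, Lef1, Tox2, Hlf and Myb, and 0 fell (limma, 1 row per gene). Lef1 had both controls under the limit for dim genes and entered the test only through the Ets1-deleted arrays. Its entry lifts this count and the median given below. In the other 7 members, and in 10338 of the 10872 tested genes, both controls reached that limit. Across the 10872 genes bright enough to test, 26.7% were called, 13.9% higher and 12.8% lower. At an unadjusted limma p under 0.05, 6 members were higher and 0 lower. This is a looser cut than that of the shares above. The share of all tested genes at this cut is not given here, so these 2 counts cannot be set against it. A call means an adjusted p under 0.05 (Benjamini-Hochberg over all tested genes), and differences are log2, Ets1-deleted minus control, ± SE from limma with n = 2 arrays a group. The 8 differences ran from -0.20 to 1.27, with a median of 0.38, against a median of -0.0036 over all tested genes. In 7 of the 8 the arrays of the genotypes did not overlap, 6 higher and 1 lower, where 62.6% of all tested genes showed no overlap. With any 1 array left out, the difference was 1.18 to 1.36 for Sox4, 0.59 to 0.74 for Lef1 and 0.45 to 0.75 for Tox2. Such fits leave 1 genotype without a spread of its own, and in each of them some of the 5 calls were lost. In bulk RNA, a change in the share of cells that express a gene and a change in its RNA per cell cannot be told apart.

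**Figure D1:**
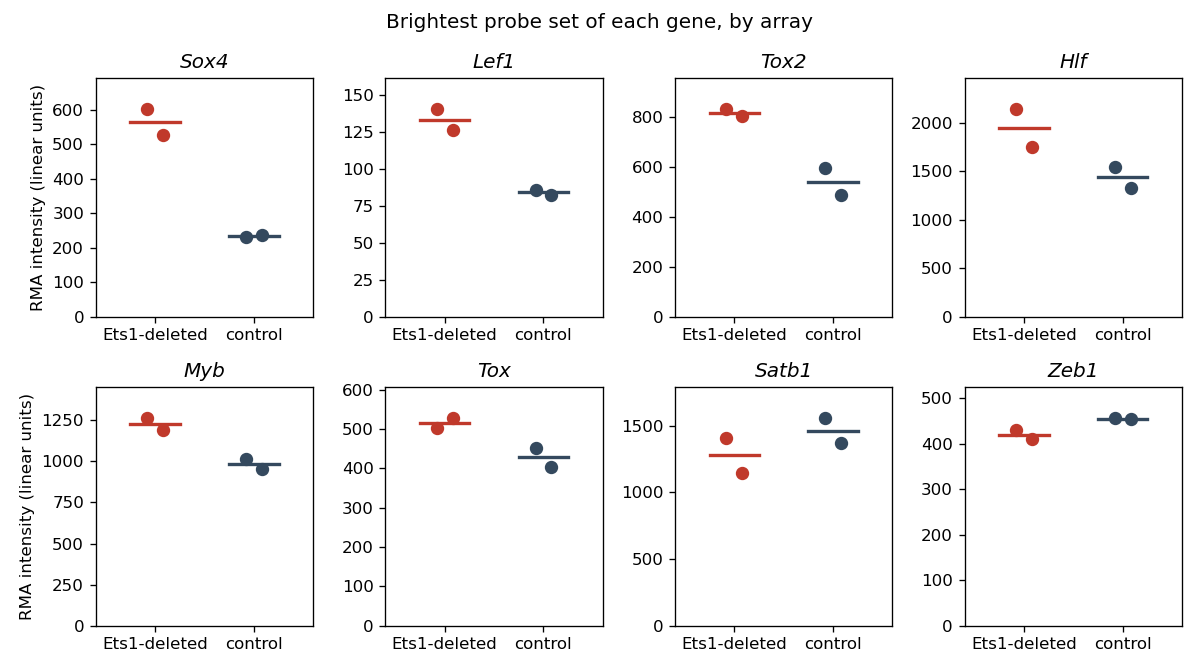
RMA intensity (linear units, axis from 0) of the brightest probe set of each of the 8 measured genes in the 2 Ets1-deleted arrays (red) and the 2 control arrays (blue-grey); dots are arrays and bars are group means. Sox4 stands at 600.1 and 527.4 in the Ets1-deleted arrays against 230.2 and 236.1 in the controls, while the arrays of the genotypes overlap for Satb1.

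Sox4 was the member that differed most. Its brightest probe set read 600.1 and 527.4 intensity units in the Ets1-deleted arrays, against 230.2 and 236.1 in the controls. Both Ets1-deleted arrays were high and the controls lay close to each other. The difference was 1.27 ± 0.11 (2.41-fold, limma, adjusted p = 5.71e-06), which ranked 286 by size among the 10872 tested genes. Of 8 Sox4 probe sets, 6 were bright enough to test and all 6 were called higher in a fit with 1 row per probe set, which called 24.2% of 22493 probe sets. Their differences were 1.27, 1.14, 1.24, 1.08, 0.89 and 0.87, from the brightest to the dimmest. The other 2 stayed between 43.3 and 52.8 intensity units on every array, below the 5th percentile of each array (55.6 to 56.4), and their genotypes overlapped. The mean over all 8 probe sets, which includes those 2, gave 0.83 (adjusted p = 0.000367 with limma). Of the 6 called probe sets, 4 carry the same source accession in the platform annotation, so they do not count as independent measurements.

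Lef1 rose from a low level. On its brightest probe set, the Ets1-deleted arrays read 139.9 and 126.4 intensity units and the controls 85.6 and 82.4. Every Ets1-deleted array lay above the limit for dim genes (97.4 intensity units) and every control array below it, so Lef1 entered the test only through the Ets1-deleted arrays; it is the 1 member of 8 for which this holds. The difference was 0.66 ± 0.11 (1.58-fold, limma, adjusted p = 0.000885). Array summaries level off near the floor, which understates the fold of dim genes, and with each array's floor subtracted the Lef1 difference was 1.46 (adjusted p = 0.000357 with limma). Its dimmer probe set, under the limit and not tested, read 80.2 and 80.4 in the Ets1-deleted arrays and 59.6 and 61.5 in the controls, without overlap. Under a stricter limit Lef1 was not tested.

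The TOX relatives were Tox2, which rose, and Tox, which did not pass the test. Tox2 read 829.0 and 803.9 intensity units in the Ets1-deleted arrays, against 596.2 and 484.9 in the controls, a difference of 0.60 ± 0.12 (1.52-fold, limma, adjusted p = 0.00337). The controls were further apart (1.23-fold) than the Ets1-deleted arrays (1.03-fold), and the groups did not overlap. Its dimmer probe set read 236.7 and 261.1 in the Ets1-deleted arrays and 200.3 and 182.4 in the controls (0.38), and was called higher too (limma over probe sets, adjusted p = 0.0326). Tox read 503.4 and 526.7 in the Ets1-deleted arrays and 452.7 and 404.0 in the controls. The Tox difference was 0.27 with a 95% interval of 0.02 to 0.52 (limma, adjusted p = 0.106). Its other 2 probe sets gave 0.45 and 0.16 and were not called, the first with 1 Ets1-deleted array at 367.9 and the other at 229.2 against 220.7 and 205.2 in the controls. The mean over all 3 Tox probe sets gave 0.29 and was called (limma, adjusted p = 0.0309).

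Hlf and Myb rose by smaller amounts, and both calls were close to the threshold. Hlf read 2135 and 1752 intensity units in the Ets1-deleted arrays and 1541 and 1329 in the controls. The lower Ets1-deleted array stood only a little above the higher control, and the difference was 0.43 ± 0.13 (1.35-fold, limma, adjusted p = 0.0274). The Hlf call was lost without Ets1-deleted array 1 (0.29, adjusted p = 0.165 in limma) or control array 2 (0.33, adjusted p = 0.178), over a range of adjusted p from 0.0061 to 1 across the alternatives. Its second probe set read 1096 and 1337 in the Ets1-deleted arrays, against 815.7 and 1076 in the controls, a difference of 0.37 that was not called (limma over probe sets, adjusted p = 0.0929).

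Myb read 1262 and 1193 intensity units in the Ets1-deleted arrays and 1013 and 951.3 in the controls, with no overlap. The difference was 0.32 ± 0.11 (1.25-fold), and its adjusted p of 0.0498 (limma) barely passed. The call was lost in 10 of 17 alternatives, among them each of the 4 that left out an array (differences of 0.28 to 0.37). The other 2 Myb probe sets pointed the same way: the middle one read 1128 and 1045 in the Ets1-deleted arrays and 867.8 and 807.6 in the controls (0.38), and the dimmest 374.1 and 371.5 against 279.9 and 259.1 in the controls (0.47). Both were called higher over all probe sets (limma, adjusted p = 0.0308 and 0.00878), while the brightest was not in that fit (adjusted p = 0.0563).

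**Figure D2:**
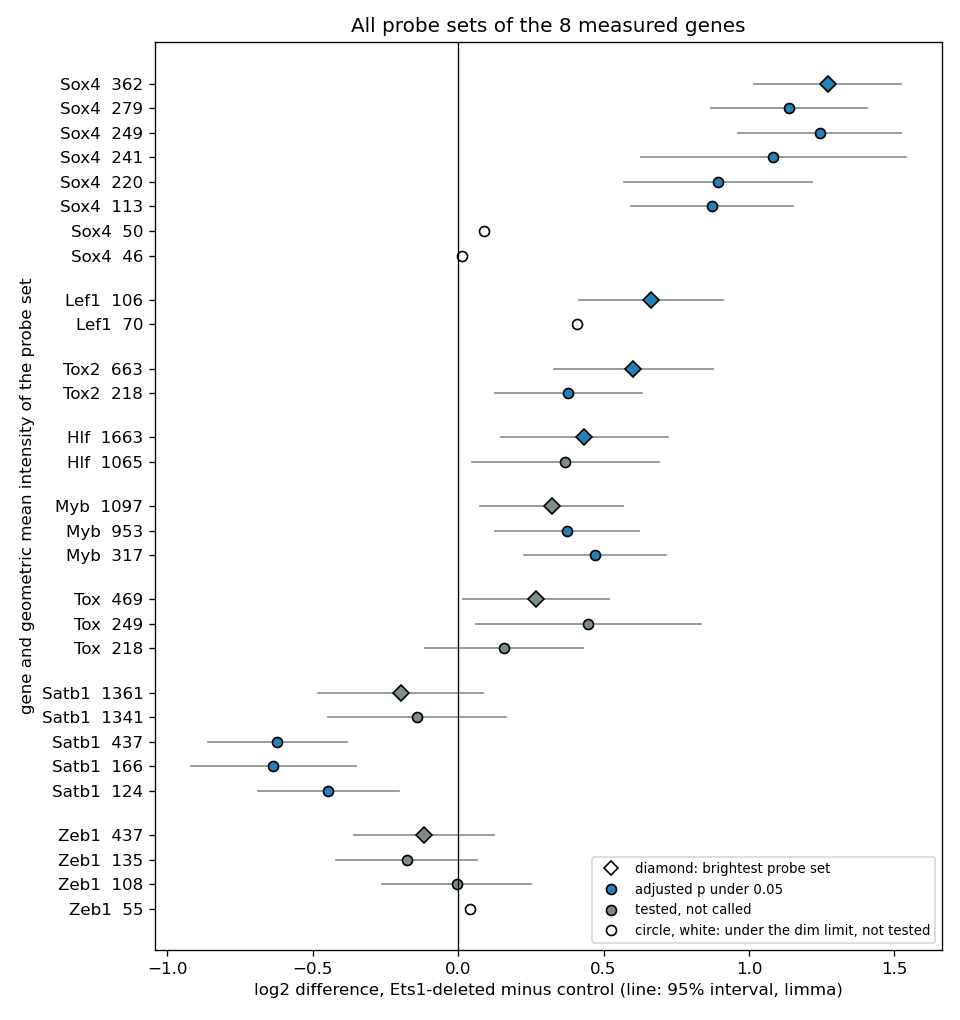
Log2 difference (Ets1-deleted minus control, horizontal axis) of all 29 probe sets of the 8 measured genes, each labelled with its gene and geometric mean intensity, from a limma fit with 1 row per probe set; lines are 95% intervals, diamonds the brightest probe sets, blue called, grey tested and not called, white not tested. All 6 tested Sox4 probe sets lie right of 0 and the 5 of Satb1 lie left of it.

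Satb1 gave 2 answers depending on the probe set. On the brightest, the Ets1-deleted arrays read 1408 and 1148 intensity units and the controls 1553 and 1367, which overlap. That difference was -0.20 with a 95% interval of -0.48 to 0.08 (limma, adjusted p = 0.301), and the second bright probe set, with the same source accession, gave -0.14. The 3 dimmer probe sets were each called lower over all probe sets, without overlap. The first of these read 354.1 and 350.0 in the Ets1-deleted arrays, against 541.4 and 542.5 in the controls, a difference of -0.62 ± 0.11 (1.54-fold lower, limma over probe sets, adjusted p = 0.00124). The second read 124.5 and 142.3 in the Ets1-deleted arrays and 186.8 and 228.7 in the controls (-0.64), and the third 103.4 and 108.5 against 141.7 and 147.2 in the controls (-0.45). Within each array, the brightest probe set stood 3.98 and 3.28 times above the first dimmer one in the Ets1-deleted arrays, and 2.87 and 2.52 times in the controls. The ratio to the second dimmer one overlapped between genotypes (11.3 and 8.07 in the Ets1-deleted arrays, 8.32 and 5.98 in the controls). The mean over all 5 probe sets fell by 0.41 (limma, adjusted p = 0.00522). The brightest gave -0.05 without Ets1-deleted array 2, -0.11 without control array 1 and -0.34 without Ets1-deleted array 1. Which part of the transcript each probe set reads is not stated in the sources used here.

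Zeb1 read 430.3 and 410.4 intensity units in the Ets1-deleted arrays and 456.0 and 454.9 in the controls. Both Ets1-deleted arrays lay below both controls, but the difference was small, -0.12 with a 95% interval of -0.35 to 0.12, and did not pass (limma, adjusted p = 0.485). The other tested Zeb1 probe sets gave -0.18 and -0.01, and neither was called. A drop of more than 0.35 or a rise of more than 0.12 lies outside this interval.

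**Figure D3:**
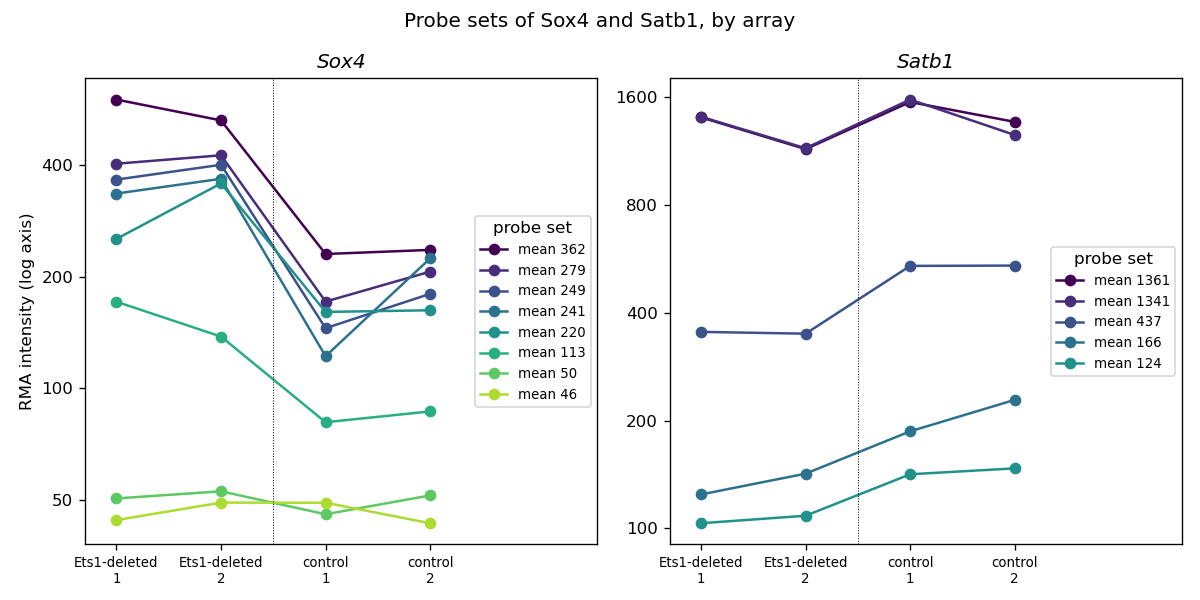
RMA intensity (log axis) of each probe set of Sox4 (left) and Satb1 (right) in the 2 Ets1-deleted and the 2 control arrays; each line joins 1 probe set, named by its geometric mean intensity, and the order of arrays within a genotype has no meaning. The 6 brighter Sox4 probe sets are higher in both Ets1-deleted arrays, and the 3 dimmer Satb1 probe sets are lower there, while the brightest pair overlaps between the genotypes.

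Ordered by the signed difference from highest to lowest, Sox4 came first, followed by Lef1, Tox2, Hlf, Myb, Tox, Zeb1 and Satb1. The 95% interval of Sox4 (1.02 to 1.52) did not overlap that of Lef1 (0.42 to 0.91), whereas the intervals of all later neighbours in this order overlapped. The differences between genes were not tested. Probe sets differ in how brightly they report their transcript, so no order of levels among the genes is given.

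**Figure D4:**
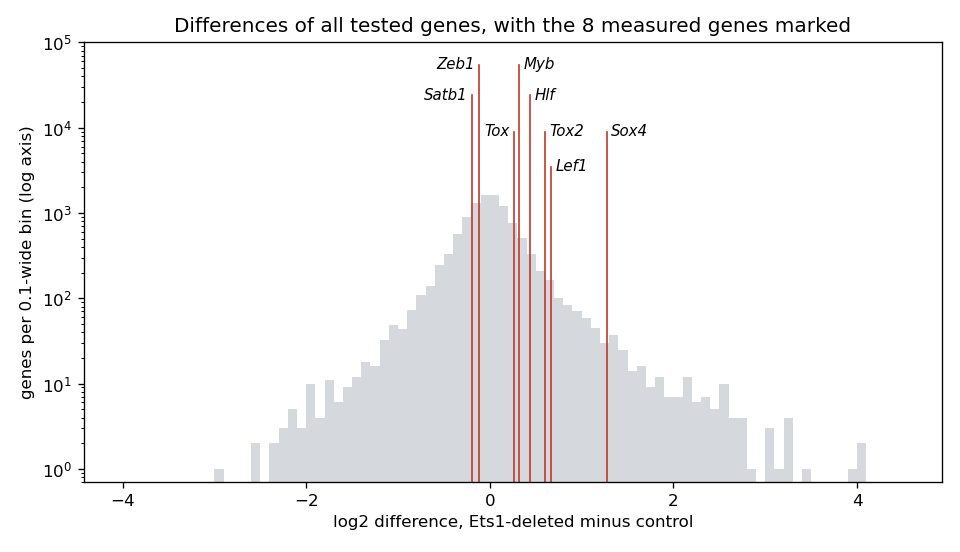
Number of tested genes (log axis) by log2 difference, Ets1-deleted minus control, in bins of 0.1, with red lines at the brightest probe sets of the 8 measured genes. Sox4, at 1.27, lies in the right flank of the distribution, and the other 7 lie between -0.20 and 0.66.

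The promoters of 4 genes that rose are shown as the DNA next to which an ETS protein could act, from RefSeq (GRCm38.p6), 250 bases before to 50 after the annotated start, 5′ to 3′ on the gene's strand. Capitals mark CCGGAA, the core of many ETS binding sites, searched on both strands; none of its matches here overlapped a match of the other motif searched.
Sox4, chr13:28953650-28953949, minus strand: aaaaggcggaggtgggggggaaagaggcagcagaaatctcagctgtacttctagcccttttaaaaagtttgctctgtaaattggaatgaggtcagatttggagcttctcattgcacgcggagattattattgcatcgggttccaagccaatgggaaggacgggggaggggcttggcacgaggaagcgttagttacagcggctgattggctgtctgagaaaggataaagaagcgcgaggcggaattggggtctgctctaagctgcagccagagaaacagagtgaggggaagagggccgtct
Lef1, chr3:131110047-131110346, plus strand, the first of 4 promoters: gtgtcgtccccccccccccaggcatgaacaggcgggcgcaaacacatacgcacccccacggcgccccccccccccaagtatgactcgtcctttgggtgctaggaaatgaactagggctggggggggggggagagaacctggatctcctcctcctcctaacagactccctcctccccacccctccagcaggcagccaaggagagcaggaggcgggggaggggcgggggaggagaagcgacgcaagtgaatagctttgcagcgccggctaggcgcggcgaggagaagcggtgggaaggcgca
Tox2, chr2:163202877-163203176, plus strand, the first of 5 promoters: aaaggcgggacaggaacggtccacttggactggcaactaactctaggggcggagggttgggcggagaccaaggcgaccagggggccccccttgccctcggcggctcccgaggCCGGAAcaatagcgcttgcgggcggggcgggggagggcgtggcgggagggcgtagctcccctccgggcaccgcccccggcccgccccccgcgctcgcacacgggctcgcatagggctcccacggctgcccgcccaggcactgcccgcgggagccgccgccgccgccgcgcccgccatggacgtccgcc
Hlf, chr11:90390868-90391167, minus strand: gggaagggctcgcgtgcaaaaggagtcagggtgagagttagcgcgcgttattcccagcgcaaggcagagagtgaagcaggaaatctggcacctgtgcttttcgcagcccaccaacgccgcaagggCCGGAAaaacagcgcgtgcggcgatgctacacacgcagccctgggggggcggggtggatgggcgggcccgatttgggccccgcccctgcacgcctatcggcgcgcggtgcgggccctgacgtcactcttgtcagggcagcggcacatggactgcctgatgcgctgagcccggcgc

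CCGGAA stood at position -138 relative to the start in the Tox2 promoter and at -125 in that of Hlf. It was not found in the windows of Sox4 and Lef1, nor in the 1 promoter of Myb and the 5 of Satb1. Of 19 promoters of 7 members, Tcf7 included, 3 (15.8%) held it, against 14.9% of 32851 promoters of the same length. CTTTGA, the core of the TCF and LEF motif, was found in 3 of the 19 (15.8%), against 16% of all promoters. It lay in 1 further promoter of Lef1 and in 2 further promoters of Tox2. Those 2 Tox2 windows overlap almost fully and hold the same site, at -139 in 1 and -140 in the other. The promoters counted are thus not all separate stretches of DNA. The shares of both motifs are close to those over all promoters. Tox had no entry, and the Zeb1 promoter was not used here.

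Among relatives of the members, 12 of 16 could be tested, 3 rose and 3 fell, with a median of 0.01. Sox13, an SOX protein of T cells that make IL-17, read 162.8 and 182.5 intensity units in the Ets1-deleted arrays and 69.5 and 68.3 in the controls, a difference of 1.32 ± 0.11 (limma, adjusted p = 3.62e-06) whose controls are near the floor. Tcf7l2, which encodes the TCF relative TCF-4, rose by 1.07. Both genes had both controls under the limit for dim genes (92.3 and 86.2 for Tcf7l2) and entered the test only through the Ets1-deleted arrays; 9 of the 12 relatives had both controls over it. The leucine zipper genes Dbp and Tef, relatives of Hlf known from daily rhythms, fell, with differences of -0.60 and -0.49 (limma, adjusted p = 0.00258 and 0.0051). Dbp read 209.9 and 235.0 in the Ets1-deleted arrays, against 316.1 and 358.6 in the controls. Named after their values were seen, the other 2 called relatives were Nfil3, which innate lymphoid progenitors need (0.43), and the Myb relative Mybl1 (-0.42).

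In the pathway through which TCF-1 and LEF1 are linked to Wnt, 4 of 24 tested genes out of 30 rose and 4 fell, with a median of 0.08. These counts lie near the shares over all tested genes (13.9% higher and 12.8% lower). Fzd7 rose by 1.33 ± 0.13 (limma, adjusted p = 8.81e-06) and Fzd6 fell by 1.26. Both encode Wnt receptors. Fzd6 read 69.82 and 79.35 intensity units in the Ets1-deleted arrays and 191.1 and 167.0 in the controls. Its Ets1-deleted arrays lay under the limit for dim genes, so it entered the test only through the controls and its difference is not a precise one. Tle4, a repressor that binds TCF proteins, read 315.3 and 345.6 intensity units in the Ets1-deleted arrays and 163.4 and 143.4 in the controls (1.11). Axin2, a commonly used readout of beta-catenin and TCF activity, fell by 0.72 (limma, adjusted p = 0.000898), with 392.3 and 463.3 in the Ets1-deleted arrays and 666.9 and 740.5 in the controls.

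Of 19 tested ILC precursor genes out of 22, 10 rose and 1 fell, with a median of 0.37. Pdcd1, whose protein PD-1 marks ILC precursors, read 488.9 and 397.3 intensity units in the Ets1-deleted arrays and 63.3 and 64.7 in the controls (2.78). Both Pdcd1 controls lay under the limit for dim genes and near the floor, so it entered the test only through the Ets1-deleted arrays and its difference is not a precise one; 17 of the 19 genes had both controls over the limit. Arg1 rose by 1.56 and Rora by 1.29, while Cd7 fell by 1.63 with 1967 and 1762 in the Ets1-deleted arrays against 5985 and 5539 in the controls. In the early T lineage programme, 7 of 19 tested genes out of 22 rose and 3 fell, with a median of 0.19. Cd3e (3.28), Cd3d (2.58) and Cd28 (2.18), which rose, encode surface proteins of T cells. The Cd3e controls read 102.8 and 81.6, 1 of them under the limit for dim genes. The 3 that fell were Notch1 (-0.68), Hes1 (-0.42) and Ikzf1 (-0.37), and Rag1, Rag2 and Bcl11b were among those not called. Dntt, the enzyme that adds bases at rearranging receptor genes, rose by 2.28, with 346.6 and 316.1 in the Ets1-deleted arrays and 71.2 and 65.1 in the controls. The Dntt controls, too, lay under the limit for dim genes and near the floor, and 16 of these 19 genes had both controls over it.

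Of 12 tested stem and progenitor genes out of 20, 6 rose and 1 fell, with a median of 0.29; only 8 of the 12 reached the limit for dim genes in both controls, and the others passed with at least 1 control array under it. Lmo2 (0.96), Erg (0.84) and Cd34 (0.76) rose, with control values of 68.3 to 91.3 intensity units over the 3 genes. These values lie under the limit, so the 3 genes entered the test only through the Ets1-deleted arrays. Spi1 (0.50), with 1 control under the limit, rose too. The genes with a control under the limit thus all rose, which lifts the count and the median. Among the 8 with both controls over it, Kit (0.55) and Gata2 (0.35) rose. Cd48 fell by 0.88. The genes of these 5 lists were chosen with earlier results of these data known.

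**Figure D5:**
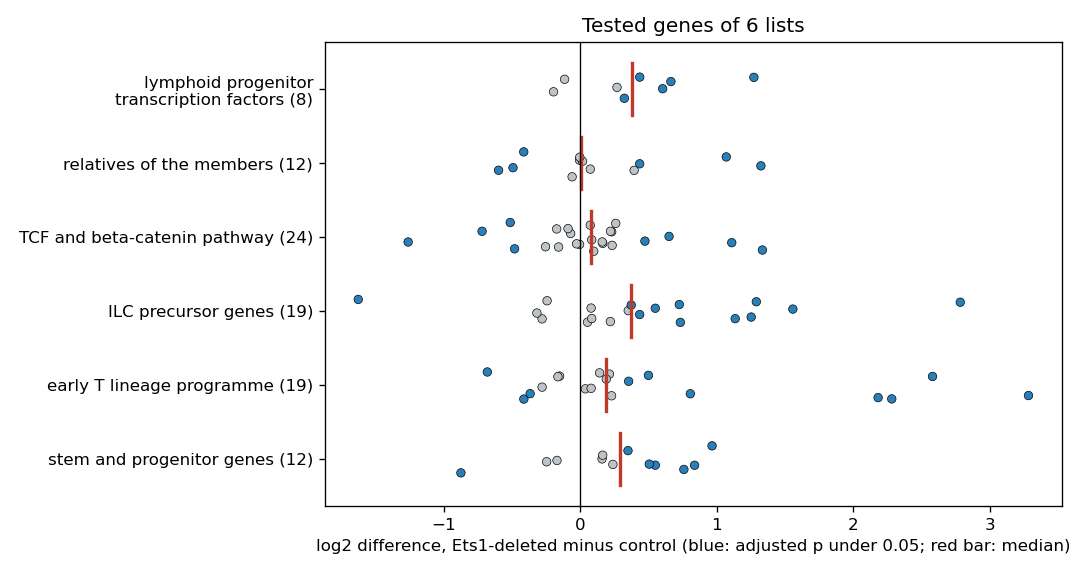
Log2 difference (Ets1-deleted minus control) of each tested gene in the list of lymphoid progenitor transcription factors and in the 5 related lists, with the number of tested genes in brackets; blue dots were called, grey dots were not, and red bars are medians. The medians run from 0.01 for the relatives to 0.38 for the lymphoid progenitor transcription factors.

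The sorted cells could hold other cell types that express some of these factors, and markers of several were higher in the same arrays. Of 13 T cell markers, 8 were tested, 4 rose and 1 fell, and the summed level of the list was 6925 to 7145 intensity units in the Ets1-deleted arrays and 3926 to 3982 in the controls. Cd4, Cd8a, Cd8b1, Cd5 and Trat1 stayed under the limit for dim genes. Here and in the lists below, the sums run over every gene with a probe set, tested or under the limit. Of 9 tested mast cell and basophil markers, 7 rose, and 6 of the 9 had both controls over the limit. Cpa3 rose most (4.07), with 1497 and 1261 in the Ets1-deleted arrays and 85.9 and 78.3, under the limit, in the controls. The list sums, which include Cpa3, were 4222 to 4382 in the Ets1-deleted arrays and 2617 to 2631 in the controls. Mcpt8 differed by -0.25 without a call. Fcer1a and Ms4a2, which define these cells, were under the limit. Of 11 tested myeloid markers, 10 rose, Ctsg most (1.51), with sums of 4616 to 4677 in the Ets1-deleted arrays and 2539 to 2809 in the controls, and Itgam and Cd14 under the limit. Of 12 tested stromal markers, 2 rose and 3 fell, with sums of 4291 to 4319 in the Ets1-deleted arrays and 3558 to 3776 in the controls, and Pdgfra and Dcn under the limit. The 2 that rose were Timp3, with 878.7 and 750.6 in the Ets1-deleted arrays and 126.4 and 151.7 in the controls, and Thy1, also on the ILC2 list, with 696.9 and 620.3 in the Ets1-deleted arrays and 178.5 and 170.6 in the controls. Of the other 10 tested stromal markers 0 rose, and Pdgfrb (-0.85), Cxcl12 (-0.41) and Vcam1 (-0.34) fell. Of 5 tested ILC3 markers 3 rose, with sums of 2997 to 3227 in the Ets1-deleted arrays and 2813 to 2839 in the controls. Of 6 tested NK and ILC1 markers 1 rose and 1 fell, with sums of 8541 to 9930 in the Ets1-deleted arrays and 8422 to 9246 in the controls, and Ncr1, Tbx21 and Eomes under the limit. Of 3 tested B cell markers Cd79b fell, with 91.6 and 83.5 in the Ets1-deleted arrays, under the limit, and 381.4 and 379.9 in the controls. It thus entered the test only through the controls. The list sums, which include Cd79b, were 734.3 to 742.2 in the Ets1-deleted arrays and 1010 to 1053 in the controls. Cd79a, Ms4a1, Pax5 and Ebf1 were under the limit. Of 5 tested erythroid and platelet markers Pf4 rose, with sums of 831.4 to 895.1 in the Ets1-deleted arrays and 707.0 to 730.0 in the controls. Among the 9 called ILC2 markers, Thy1 (1.91) and Rora (1.29) rose and Klrg1 (-1.60) and Icos (-0.38) fell, while Il7r differed by 0.05 without a call. The part of these cell types in the differences of Sox4, Lef1, Tox2, Hlf, Myb and Satb1 was not tested.

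By the distance between log2 values over the 4 arrays, each centred on its gene's mean, the genes most like Sox4 were Abca1 (distance of 0.0550), Strip2 (0.0566) and Avil (0.0753). Lef1 lay nearest to Tnfsf11, Mitf and Pdzk1, the first at 0.0365, and Tox2 to Cd200r4, Mctp2 and Pcm1, at 0.0283 to 0.0341. The nearest to Hlf were Tmem14a, Cdyl and Apool (0.0197 to 0.0462), and to Myb Thumpd1, Ppp1r3f and Sf3b4 (0.0210 to 0.0270). With 4 arrays in 2 genotypes, this likeness describes a shared size of difference and little more.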

How the data were processed

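RNA of the sorted cells was amplified and labelled with biotin, per the labels' protocols. The deposited intensity values were made by the authors with RMA, per the submitters' processing notes; software and version are not stated in the sources used here. They run from 39.5 to 23291 and were read as linear, an inference from the values, and turned into log2. Array medians lay between 96.5 and 97.7, so nothing was renormalized. Probe sets were named through the platform annotation: 34958 had 1 symbol, 932 several and 9211 were not listed; 64 controls were left out.

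A gene was tested where the geometric mean of its brightest probe set reached the median over all probe sets (97.4). Genotypes were compared with limma (3.58.1, R 4.3.3; lmFit, eBayes), two-sided, Ets1-deleted minus control, with Benjamini-Hochberg adjustment over 10872 genes. The fit was also run on simulated data with 200 changed genes and independent noise. That setting has far fewer changed genes than were called here, so it does not give the error rate for these arrays. With 2 arrays a group, the smallest p of an exact permutation test is 0.333. The number of arrays limits the precision. No array batch is stated in the sources used here, so a batch that followed the genotypes cannot be told apart from them.

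The members, the gene lists and the tests were chosen with earlier results of these data known. Named were the members, Ets1, the 4 called genes of largest difference in each pathway list, the 3 in each marker list, Gata3, Rora, Icos and Il7r, and the 3 genes of nearest pattern for each called member. Some named by this rule are left to counts. Some further genes of these lists were named after their values were seen. Alternatives changed the normalization, floor, dim limit, probe set summary, variance, block, threshold and arrays.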

Additional observations from a re-analysis of the deposited data

How the results depend on the processing

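All 8 members kept their direction under all 17 alternatives run for them (16 for Lef1, which the stricter dim limit left out). Of 135 such values, 112 kept their side of the threshold, 21 lost a call and 2 gained one: Tox (0.29) and Satb1 (-0.41) with the mean over probe sets. That mean gave 1 member lower. Sox4 lost its call in 1 alternative, each gene's own variance (adjusted p = 0.102, limma's fit without sharing), Lef1 and Tox2 in 2, Hlf in 6 and Myb in 10. Members called higher numbered 3 with the array floor subtracted, 1 (Sox4) with a limit of 1.5-fold, 3 to 4 with an array left out, and 0 with own variances, where 3 had an unadjusted p under 0.05. The share of all tested genes at that unadjusted cut is not given here, so this count of 3 cannot be set against it. Across all genes, 484 were called with the 1.5-fold limit and 13 with own variances, against 2900, so the calls rest on variance shared across genes. With an array left out, the genotype with 1 array gives no spread of its own. Without a control array the SE was 0.17 for all 8 members, so the fit used 1 common spread for them. The arrays share replicate numbers but nothing says that these mark a pair (correlation of deviations 0.17); with a replicate block 3250 genes and 5 members were called. Dim signals near the floor limit Lef1, and the number of arrays limits all values.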
